A study of Mus musculus with 10 samples.

Results

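The colony-stimulating factors and their receptors were followed in bulk melanomas that did or did not express cyclooxygenase and in which NK cells had or had not been depleted. The group holds 9 of the 45706 genes in the count table, matched by Ensembl identifier to the mouse symbols: the ligands Csf1, Il34, Csf2 and Csf3, and the receptor genes Csf1r, Csf2ra, Csf2rb, Csf2rb2 and Csf3r. The rule lists them by symbol and uses no expression value, but they were chosen with earlier results of these data known. Of the 9, 7 passed the filter on low counts and were tested among 14550 genes, while Csf2 and Csf3 did not pass and are described by their counts.

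Colony-stimulating factors are secreted proteins named for the blood cell colonies they raise in culture. CSF-1 (M-CSF, from Csf1) and IL-34 share the receptor tyrosine kinase encoded by Csf1r, which monocytes and macrophages need to survive and differentiate. GM-CSF (Csf2) acts through a specific alpha chain (Csf2ra) joined to the common beta chain (Csf2rb), which IL-3 and IL-5 also use, and the mouse has a further beta chain, Csf2rb2, that serves IL-3. G-CSF (Csf3) drives the production and release of neutrophils through Csf3r, a receptor of neutrophils and their precursors. In tumors these factors are known for recruiting and shaping macrophages and neutrophils.

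Each tumor was grown from melanoma cells injected into C57BL/6 hosts aged 8 weeks and was taken on day 4. Ptgs+/+ tumors (n = 4) came from wildtype cells and Ptgs-/- tumors (n = 3) from cells deficient in Ptgs1 and Ptgs2, the genes for COX-1 and COX-2, both in untreated hosts. The third group (n = 3, called NK-depleted) was Ptgs-/- tumors in hosts that received 2 NK cell-depleting antibodies together, anti-NK1.1 (200 µg) and anti-asialo-GM1 (30 µg), on days 0 and 2 by the labels. All cells derive from a Braf-driven mouse melanoma line, only the melanoma cells carry the Ptgs lesion and host cells keep both genes, and whether the Ptgs-/- cells are 1 clone is not given in the sources used here. The labels call the samples tumors without saying whether each is 1 animal, so p-values measure the spread between these samples, which may be technical in part.

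The libraries held 8150556 to 12839174 counts, and a floor of 3 counts in a library is 0.234 to 0.368 CPM, which are counts scaled to a library total of 1000000. Floors and counting intervals cover counting error only. Ptgs2 averaged 253.5 CPM in Ptgs+/+ tumors, 43.0 in Ptgs-/- and 44.8 in NK-depleted tumors. Ptgs+/+ replicate 3 was at 94.4 CPM of Ptgs2, below the 282.8 to 346.6 of the other Ptgs+/+ libraries and nearer to Ptgs-/- replicate 1 at 74.8. Ptgs1 averaged 152.0, 94.0 and 96.5 CPM in the 3 groups, but tags from the 3′ end of a transcript may lie outside the edited part. The NK receptor gene Ncr1 was at 0 in all 3 NK-depleted libraries. The labels call the tissue melanoma, and its pigment genes Tyrp1, Mlana, Tyr, Dct and Pmel did not exceed 0.738 CPM in any library. Of the transcription factors of melanocytes, Sox10 was at 0.207 to 5.53 CPM and Mitf at 17.4 to 33.1. Which cells carried the Mitf transcripts was not tested. Ptgs+/+ replicate 4 and Ptgs-/- replicate 3 carry another experiment code than the other 8 libraries, and every NK-depleted library carries the first code. In bulk tumors, fewer cells of a type and less RNA per cell cannot be told apart.

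Each transcript gave about 1 tag whatever its length, so levels in CPM can be set side by side between genes. Csf1r was the most abundant member, with a mean of 294.6 CPM ± 78.3 (SD, n = 10 libraries), and exceeded Il34 in 10 of 10 libraries. Il34 (160.5 ± 33.0) and Csf1 (122.6 ± 37.5) followed, and their order was not fixed, since Il34 was the higher in 8 of 10 libraries. The common beta chain Csf2rb averaged 58.0 ± 14.7 CPM. Csf2rb2 (16.7 ± 3.96) and Csf2ra (13.8 ± 6.64) did not separate, with Csf2rb2 the higher in 5 of 10 libraries. Csf3r (4.36 ± 1.22) stood below them in every library, and the ligands Csf3 (0.265 ± 0.282) and Csf2 (0.0103 ± 0.0327) lay around or under the floor. The 2 ligands of Csf1r were therefore well measured while the ligands of the other receptors were barely counted.

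**Figure D1:**
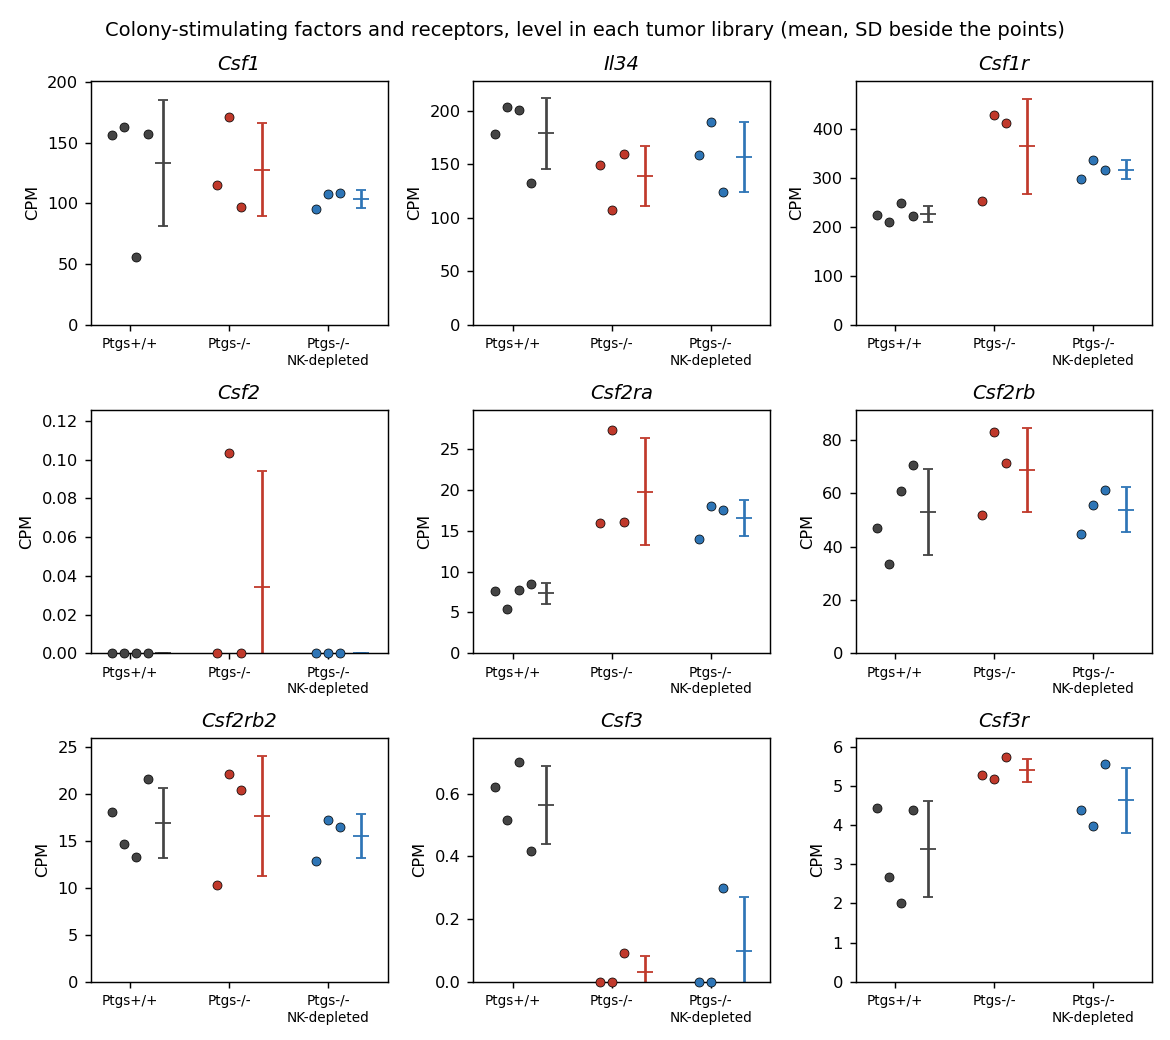
Level of each of the 9 genes in CPM (vertical axis, from 0, with its own scale in each panel) in the 4 Ptgs+/+, 3 Ptgs-/- and 3 NK-depleted Ptgs-/- tumor libraries; each point is a library, in the order of the replicates, and the bar beside the points is the mean with its SD, cut at 0. Csf2ra stood apart between Ptgs+/+ tumors (at most 8.47 CPM) and both kinds of Ptgs-/- tumor (at least 14.0 CPM), and Csf3 was counted in every Ptgs+/+ library but in only 1 library of each other group.

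Between Ptgs-/- and Ptgs+/+ tumors, the question was which of these genes moved with the loss of cyclooxygenase in the melanoma cells. Csf2ra and Csf1r rose and no member fell, at an adjusted p at or under 0.05 (edgeR's quasi-likelihood test, Benjamini-Hochberg over all genes). This is 2 of 7 members higher, where 12.1% of all genes tested were higher and 11% lower. None of the 7 also reached the study's size limit of 1.5 on the log2 scale, which 4.15% of all genes did. Before adjustment 4 members had p under 0.05 (Csf1r, Csf2ra, Csf3r and Il34), and DESeq2 called the same number at each step, 2 and 0. Median log2 fold change was 0.32 over the 7 members and -0.0060 over all genes.

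Between Ptgs-/- tumors with and without NK cells, none of the 7 members passed, where 0.515% of all genes were higher and 0.921% lower with NK cells present, and 1.15% passed both limits. No member had an unadjusted p under 0.05 in edgeR or in DESeq2. The 95% intervals of the 7 log2 differences still reached 1.01 for Csf1 and 0.86 for Csf2rb on one side and -0.67 for Il34 on the other, so that changes of such sizes remain possible. Between NK-depleted Ptgs-/- and Ptgs+/+ tumors only Csf2ra passed, as 1 of 7 members higher and 0 lower where 6.63% of all genes were higher and 5.87% lower. No member passed both limits there, which 2.71% of all genes did, and 2 had unadjusted p under 0.05, while DESeq2 called 2 by adjusted p and 0 by both limits. The comparisons share their libraries and are not independent of each other. Skeletal muscle genes moved with NK depletion, with 6 of 6 listed genes higher than in Ptgs-/- tumors and sums of 2086 to 4930 CPM in NK-depleted, 95.5 to 337.9 in Ptgs-/- and 16.6 to 149.2 in Ptgs+/+ libraries, and their part in the levels above was not tested.

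**Figure D2:**
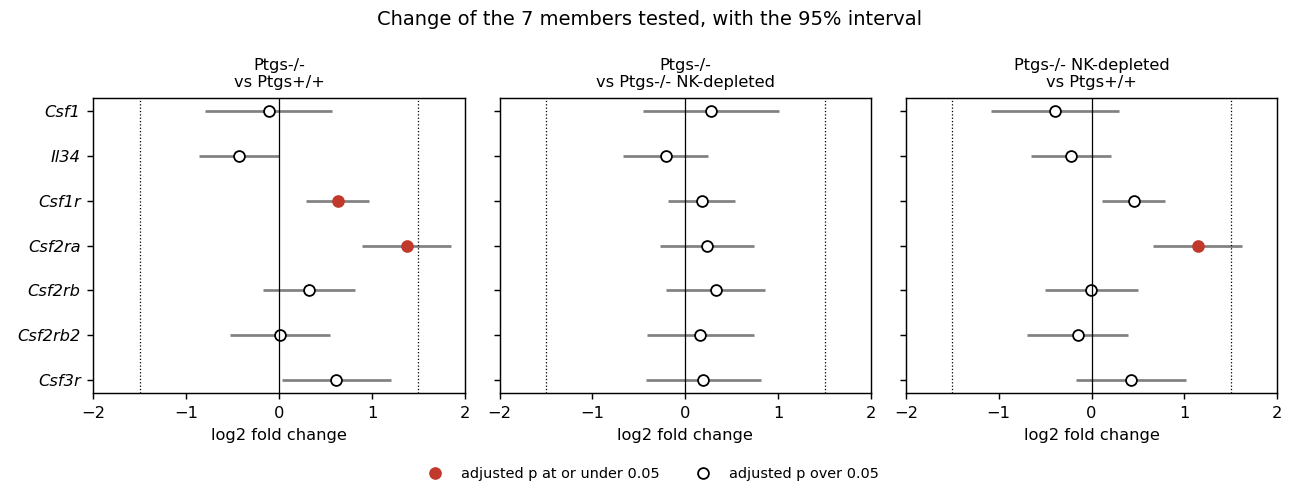
Log2 fold change of the 7 tested genes in the 3 comparisons (horizontal axis; points, with lines for the 95% interval from edgeR); filled points have an adjusted p at or under 0.05 and dotted lines mark 1.5 in either direction. The Csf2ra points lie at 1.38 and 1.14 against Ptgs+/+ tumors, and in the comparison between the Ptgs-/- groups every interval includes 0.

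The CSF-1 receptor axis showed a higher receptor with ligands that did not pass the test. Csf1r counted 223.1, 210.7, 248.3 and 221.5 CPM in the Ptgs+/+ libraries, 252.9, 427.9 and 412.4 in Ptgs-/- tumors, and 297.5, 335.4 and 316.5 in the NK-depleted libraries. All 6 Ptgs-/- libraries, depleted or not, were above the highest Ptgs+/+ library, although Ptgs-/- replicate 1 was close to it. The log2 fold change was 0.63 (SE 0.15, adjusted p = 0.0132) for Ptgs-/- and 0.45 (SE 0.15, adjusted p = 0.0785) for NK-depleted tumors, both against Ptgs+/+. The first call was lost without Ptgs-/- replicate 2 (0.50, adjusted p = 0.0568) and in the libraries of the first experiment code alone (0.56, adjusted p = 0.0800), and the other code holds 1 library of each kind, at 221.5 and 412.4 CPM.

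Csf1, which encodes the ligand CSF-1, was at 155.9, 162.9, 55.6 and 157.4 CPM in Ptgs+/+ libraries, 115.1, 170.7 and 97.0 in Ptgs-/- tumors, and 95.1, 107.8 and 108.1 in NK-depleted libraries. Ptgs+/+ replicate 3, the library with the low Ptgs2 level, was far below the other 3 Ptgs+/+ libraries, and the groups overlapped. The log2 fold changes were -0.11 (95% interval -0.80 to 0.57) and -0.39 (-1.08 to 0.30) against Ptgs+/+, for Ptgs-/- and NK-depleted tumors, with adjusted p of 0.830 and 0.479. Without that replicate the second became -0.65 (SE 0.18, adjusted p = 0.0339), past the threshold, and the first became -0.37 (adjusted p = 0.144).

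Il34, the other ligand of this receptor, counted 178.9, 203.6, 201.2 and 132.7 CPM in Ptgs+/+, 149.3, 107.0 and 160.2 in Ptgs-/- and 158.8, 189.5 and 124.0 in NK-depleted libraries. Its highest libraries were Ptgs+/+, and all 3 groups overlapped. The log2 fold change in Ptgs-/- tumors was -0.43 (SE 0.20, adjusted p = 0.139). Of its other reported receptors, Sdc1, a cell-surface proteoglycan, fell in Ptgs-/- tumors (-0.53, SE 0.17, adjusted p = 0.0391), and Ptprz1, a receptor phosphatase, stayed at or under 0.515 CPM in all libraries. Keratinocytes are a known source of IL-34. Of 5 tested keratinocyte genes, 1 was lower in Ptgs-/- than in Ptgs+/+ tumors (Krt5, -1.81, SE 0.51, adjusted p = 0.0260, named after its values had been seen) and 0 were higher, with a median log2 fold change of -1.42. The sum of the 6 listed genes was 21.5 to 32.4 CPM in Ptgs+/+, 19.8 to 24.6 in Ptgs-/- and 26.9 to 28.9 in NK-depleted libraries, and their part in the levels of Il34 and Sdc1 was not tested.

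Set against its ligands within each library, Csf1r made 0.666, 0.575, 0.967 and 0.764 transcripts per transcript of Csf1 and Il34 together in Ptgs+/+ tumors, 0.956, 1.54 and 1.60 in Ptgs-/- tumors and 1.17, 1.13 and 1.36 in NK-depleted tumors. The first 2 groups overlapped by 1 library each, and the NK-depleted libraries were all above the Ptgs+/+ ones. The difference in means was 0.624 between Ptgs-/- and Ptgs+/+ (exact two-sided permutation test, p = 0.114) and 0.478 between NK-depleted and Ptgs+/+ (exact p = 0.0571, the smallest that 3 against 4 libraries allow). After adjustment over the 18 tests of ratios, chosen after the data had been seen, these were 0.229 and 0.147.

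Macrophage genes rose in the same libraries as Csf1r. Of 12 listed genes, none at 0, 8 were higher and 0 lower in Ptgs-/- than in Ptgs+/+ tumors, and 3 were higher and 1 lower in NK-depleted tumors. Their sum was 1842 to 2229 CPM in Ptgs+/+, 2924 to 4594 in Ptgs-/- and 2618 to 2980 in NK-depleted libraries. Set against that sum, which does not include it, Csf1r was at 10.1 to 11.4% in Ptgs+/+, 8.65 to 12.1% in Ptgs-/- and 10.8 to 11.4% in NK-depleted libraries, and the 3 ranges overlapped. Monocyte genes moved likewise, with 5 of 8 higher and 1 lower in Ptgs-/- tumors and sums of 1177 to 1569, 2766 to 3215 and 2118 to 2451 CPM in the 3 groups. The part of these cells in the level of Csf1r was not tested.

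Partners and effectors of the CSF-1 receptor were higher where they passed the test. In Ptgs-/- against Ptgs+/+ tumors 9 of 12 listed genes were higher and 0 lower, with a median log2 fold change of 0.55, and in NK-depleted tumors 2 of 12 were higher and 0 lower, with a median of 0.29. Pik3cd, the leukocyte catalytic subunit of phosphoinositide 3-kinase, went from 97.8 CPM in Ptgs+/+ to 244.8 in Ptgs-/- tumors (1.27, SE 0.16, adjusted p = 0.000387) and 170.8 in NK-depleted tumors (0.77, SE 0.16, adjusted p = 0.00885). Ptpn6, the phosphatase SHP-1 that restrains receptor signaling, went from 36.3 to 80.3 (1.09, SE 0.15) and 57.7 CPM (0.64, SE 0.15). Plcg2, a phospholipase of immune cells, rose in Ptgs-/- tumors from 10.1 to 19.0 CPM (0.86, SE 0.19, adjusted p = 0.00731). Lymphocytes express such genes too, and their markers moved in the same libraries. Of 7 tested NK cell genes 6 were higher and 0 lower in Ptgs-/- than in Ptgs+/+ tumors, with sums of 17.1 to 38.2 CPM in Ptgs+/+, 75.5 to 157.7 in Ptgs-/- and 8.03 to 9.34 in NK-depleted libraries. Of 7 tested T cell genes 6 were higher and 0 lower, with sums of 5.26 to 8.47, 17.2 to 43.7 and 12.7 to 18.9 CPM, and the part of these cells in the effector genes was not tested.

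**Figure D3:**
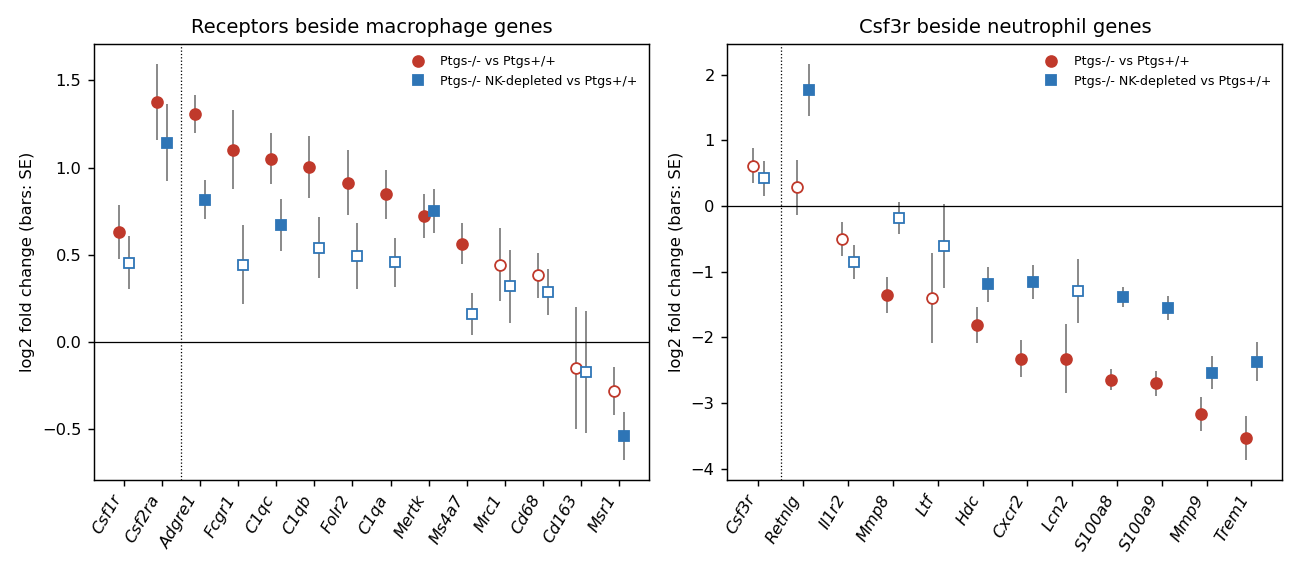
Log2 fold change (vertical axis, lines for the SE) of Csf1r and Csf2ra beside 12 macrophage genes (left) and of Csf3r beside the 11 tested neutrophil genes (right), for Ptgs-/- (circles) and NK-depleted Ptgs-/- tumors (squares) against Ptgs+/+; filled symbols have an adjusted p at or under 0.05. Csf1r lies among the macrophage genes and Csf2ra at 1.38 above all 12 of them. Monocyte and dendritic cell genes are not drawn, and some of them rose more than Csf2ra in Ptgs-/- tumors. Csf3r lies at 0.61 and 0.42, above most neutrophil genes, of which 8 fell in Ptgs-/- tumors.

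The GM-CSF system showed the largest change of any tested member, in its alpha chain. Csf2ra counted 98, 53, 88 and 81 tags in the Ptgs+/+ libraries (7.63, 5.46, 7.73 and 8.47 CPM), 130, 264 and 176 in the Ptgs-/- tumors (15.9, 27.3 and 16.0 CPM) and 131, 195 and 177 in the NK-depleted libraries (14.0, 18.0 and 17.6 CPM). Every Ptgs-/- library, with or without NK cells, was above every Ptgs+/+ library, and the other 2 groups overlapped each other. The level was 2.59-fold higher in Ptgs-/- tumors (log2 fold change 1.38, SE 0.22, adjusted p = 0.00135) and 2.21-fold higher in NK-depleted tumors (1.14, SE 0.22, adjusted p = 0.00627). In the libraries of the first code alone the values were 1.62 (adjusted p = 0.00532) and 1.22 (adjusted p = 0.0125), which puts the first past the limit of 1.5, and in the second code the lone libraries were at 8.47 CPM in Ptgs+/+ and 16.0 in Ptgs-/-. Between Ptgs-/- tumors with and without NK cells the difference was 0.23 (95% interval -0.27 to 0.74, adjusted p = 0.761).

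Csf2ra lies on chromosome 19 of GRCm38 (61223957 to 61228429, minus strand), overlaps no other gene of the count table, and its last 500 bases share no stretch of 50 bases with another gene's transcripts. The 250 bases before the start of Csf2ra are shown because it is the member that changed most, and those of Csf3r and Csf2rb2 because they are receptor genes of myeloid cells that did not pass the test. All are from RefSeq (GRCm38.p6), which gave entries for 5 of the 9 genes, and run 5′ to 3′ on the gene's strand at chr19:61228419-61228668 (minus strand), chr4:126024409-126024658 (plus strand) and chr15:78305722-78305971 (minus strand). Capitals mark matches to 2 of 4 motifs searched on both strands: the cAMP response element TGACGTCA and the core GAGGAA bound by PU.1, the transcription factor of myeloid cells. These starts are those of RefSeq, and in the annotation that gave the gene coordinates Csf2ra begins at 61228429 and Csf3r at 126024550, so that the last 11 bases of the Csf2ra window and the last 109 of the Csf3r window lie within the annotated gene. The other 2, the AP-1 element TGANTCA and the CK-1 element GAGATTCCA known from cytokine promoters, had no match in the 5 windows. The Csf2 window, not shown, lies at chr11:54249900-54250149 (minus strand), while Csf2 begins at 54249667 in that annotation. The bases between that window and the annotated start were not searched, so the lack of a match says nothing about them.
Csf2ra: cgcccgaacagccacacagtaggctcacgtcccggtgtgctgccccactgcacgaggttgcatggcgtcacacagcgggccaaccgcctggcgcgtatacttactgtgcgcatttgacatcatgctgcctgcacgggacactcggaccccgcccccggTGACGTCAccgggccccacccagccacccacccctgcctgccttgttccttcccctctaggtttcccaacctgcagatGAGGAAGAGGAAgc
Csf3r: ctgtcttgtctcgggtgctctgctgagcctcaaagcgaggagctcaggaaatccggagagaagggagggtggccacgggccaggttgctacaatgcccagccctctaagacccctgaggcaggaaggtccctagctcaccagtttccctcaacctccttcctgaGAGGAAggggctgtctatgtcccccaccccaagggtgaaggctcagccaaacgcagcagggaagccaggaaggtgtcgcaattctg
Csf2rb2: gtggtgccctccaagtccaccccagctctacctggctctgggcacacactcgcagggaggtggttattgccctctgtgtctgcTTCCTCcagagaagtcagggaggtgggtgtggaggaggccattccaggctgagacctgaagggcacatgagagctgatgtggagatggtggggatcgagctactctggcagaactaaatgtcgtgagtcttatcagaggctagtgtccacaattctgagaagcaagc
The Csf2ra window holds the cAMP response element at 92 to 85 bases before the start, which 1.55% of 32851 promoters of that length hold, and GAGGAA back to back at 14 and 8 bases before it, in part or wholly within the annotated gene. The Csf3r window holds 1 GAGGAA, also within the annotated gene, and the Csf2rb2 window 1 on the opposite strand (TTCCTC). This core was found in 3 of the 5 windows and in 23.3% of all promoters. A match describes letters only.

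Csf2, the GM-CSF gene, was counted once in 102524602 tags, in Ptgs-/- replicate 2. The other 9 libraries were at 0, which allows up to 0.234 to 0.368 CPM in each, and no difference was detectable at this depth. Csf2rb, the common beta chain, was at 47.0, 33.4, 60.7 and 70.7 CPM in Ptgs+/+, 51.9, 83.2 and 71.3 in Ptgs-/- and 44.7, 55.5 and 61.3 in NK-depleted libraries. The 3 groups overlapped, with log2 fold changes against Ptgs+/+ of 0.32 (95% interval -0.17 to 0.82) and -0.0045 (-0.51 to 0.50). Csf2rb2, the beta chain of IL-3, was at 18.1, 14.6, 13.3 and 21.6 CPM in Ptgs+/+, 10.3, 22.1 and 20.4 in Ptgs-/- and 12.8, 17.2 and 16.5 in NK-depleted libraries, again with overlap and with log2 fold changes of 0.011 (-0.53 to 0.55) and -0.15 (-0.69 to 0.39). Both genes lie side by side on chromosome 15 (Csf2rb from 78325752 to 78353847 on the plus strand and Csf2rb2 from 78282507 to 78305721 on the minus strand). Of the 50-base stretches in the last 500 bases of their coding transcripts, 13.4% of those of Csf2rb occur in Csf2rb2 transcripts and 2.33% of those of Csf2rb2 in Csf2rb, so that their counts could be split in part.

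The alpha chain was also set against the beta chain within each library. This ratio uses the same Csf2ra counts as the test above and is no separate test of them. Csf2ra was 16.2, 16.4, 12.7 and 11.98% of the Csf2rb level in Ptgs+/+ libraries, 30.7, 32.8 and 22.5% in Ptgs-/- tumors and 31.3, 32.4 and 28.7% in NK-depleted libraries. Every Ptgs-/- library was above every Ptgs+/+ library. The differences in means from Ptgs+/+ were 14.4 and 16.5 percentage points (exact two-sided permutation test, p = 0.0571 each, the smallest possible, and 0.147 adjusted over the 18 ratio tests).

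Set against the macrophage sum, which does not include it, Csf2ra was at 0.297 to 0.388% in Ptgs+/+, 0.471 to 0.595% in Ptgs-/- and 0.535 to 0.604% in NK-depleted libraries (exact p = 0.0571 and adjusted 0.147 for both differences from Ptgs+/+). Dendritic cell genes, which mark other cells that bear this receptor, were higher for 5 of 8 and lower for 0 in Ptgs-/- tumors. Their sums were 32.5 to 51.2, 55.7 to 90.0 and 53.1 to 70.6 CPM in the 3 groups. Monocyte genes were higher for 5 of 8 and lower for 1. They summed to 1177 to 1569, 2766 to 3215 and 2118 to 2451 CPM. Some, named after their values had been seen, rose more than Csf2ra in Ptgs-/- tumors. These were Ly6c2 (log2 fold change 2.19), Ccr2 (1.75) and Plac8 (1.55) of monocytes and Xcr1 (2.16) and Clec9a (1.69) of dendritic cells. The other listed genes of both kinds lay below Csf2ra. The part of these cells in the level of Csf2ra was not tested.

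Around the beta chain, IL-3 and IL-5 were nearly absent, with Il3 at 0 in all libraries and Il5 at or under 0.107 CPM. Of the 11 tested relatives and signaling genes, 2 were higher and 2 lower in Ptgs-/- tumors (median log2 fold change 0.20), and 0 were higher and 3 lower in NK-depleted tumors (0.10). Pim1, a kinase gene that STAT5 induces, rose from 61.3 to 101.1 CPM (0.66, SE 0.15, adjusted p = 0.00772), and Socs2, a feedback inhibitor of the same pathway, from 49.0 to 81.9 (0.68, SE 0.20, adjusted p = 0.0291). Bcl2l1, which encodes the survival protein BCL-XL, fell from 99.98 CPM to 62.0 in Ptgs-/- (-0.75, SE 0.14, adjusted p = 0.00269) and 68.3 in NK-depleted tumors (-0.58, SE 0.13, adjusted p = 0.0159). The adaptor gene Shc1 fell in both, with log2 fold changes of -0.38 (SE 0.12, adjusted p = 0.0406) in Ptgs-/- and -0.45 (SE 0.12, adjusted p = 0.0306) in NK-depleted tumors. The kinase gene Jak2 was at -0.18 (adjusted p = 0.171) in Ptgs-/- tumors and passed in NK-depleted tumors (-0.32, SE 0.092, adjusted p = 0.0440).

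In the G-CSF system the ligand was counted mostly in Ptgs+/+ tumors, and the receptor did not pass the test. Csf3 (chromosome 11 of GRCm38, 98701263 to 98703629, plus strand) was counted 8, 5, 8 and 4 times in the Ptgs+/+ libraries (0.623, 0.515, 0.702 and 0.418 CPM), 0, 0 and 1 times in the Ptgs-/- tumors and 0, 0 and 3 times in the NK-depleted libraries. All 4 Ptgs+/+ libraries were above the 6 others, though at counts close to the floor of 3. Pooled, 25 counts in Ptgs+/+ against 1 in Ptgs-/- give a 16.5-fold higher rate (95% counting interval 2.71 to 679.4), and 25 against 3 in NK-depleted tumors a 5.80-fold higher rate (1.77 to 30.0). Over libraries the exact two-sided permutation test gave p = 0.0571 for both, the smallest that 3 against 4 allow, and 0.171 adjusted over the 6 tests of Csf2 and Csf3. Between the Ptgs-/- groups, with 1 and 3 counts, p was 1 (exact; 0.1 was the smallest possible). In a fit without the filter, edgeR's adjusted p was 0.0194 for Ptgs-/- and 0.115 for NK-depleted tumors, both against Ptgs+/+.

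Among genes whose products induce colony-stimulating factors, those of 2 cytokines and 1 receptor fell in both kinds of Ptgs-/- tumor. Of 8 tested inducer genes, 0 were higher and 3 lower in Ptgs-/- and likewise in NK-depleted tumors, each against Ptgs+/+. Il1b, the gene of interleukin-1β, was at 97.8, 82.5, 85.0 and 95.9 CPM in Ptgs+/+, 23.6, 19.1 and 20.7 in Ptgs-/- and 20.2, 22.3 and 24.2 in NK-depleted libraries (-2.15 and -2.05, SE 0.12 for both, adjusted p = 6.13e-06 and 8.91e-06). Il6, a cytokine of acute inflammation, was at 11.1, 4.43, 4.13 and 7.53 CPM, then 0.982, 0.414 and 0.638, then 0.642, 1.20 and 2.88 (-3.39 and -2.13, adjusted p = 0.00157 and 0.0147). The interleukin-1 receptor gene Il1r1 fell by 0.81 and 0.69 on the log2 scale (SE 0.15 for both). For all 3, named because they passed in these same libraries, the Ptgs+/+ libraries did not overlap with those of either Ptgs-/- group. This separation is therefore no further test. Tnf, the gene of tumor necrosis factor and named after its values had been seen, was at 1.48 CPM in Ptgs+/+, 3.23 in Ptgs-/- (1.06, SE 0.36, adjusted p = 0.0562) and 1.82 in NK-depleted tumors (0.25, adjusted p = 0.733). It did not pass, though no Ptgs-/- library overlapped with a Ptgs+/+ library. Il17a was at 0 in all libraries and Il1a at or under 0.491 CPM.

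**Figure D4:**
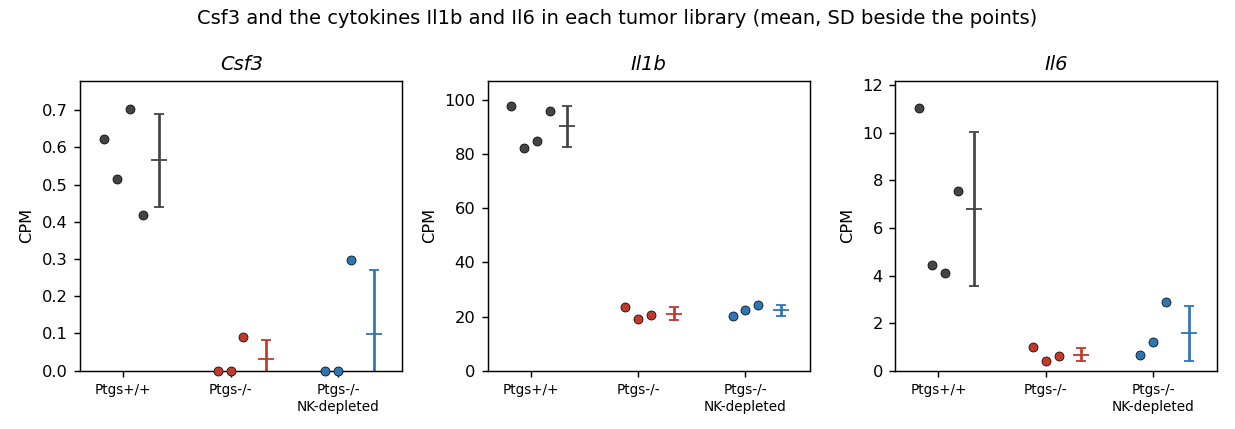
Levels of Csf3, Il1b and Il6 in CPM (vertical axes from 0, each with its own scale) in the 4 Ptgs+/+, 3 Ptgs-/- and 3 NK-depleted Ptgs-/- tumor libraries; points are libraries and the bar beside them is the mean with its SD, cut at 0. In all 3 panels the Ptgs+/+ libraries lie above the others, but the Csf3 values rest on at most 8 counts a library.

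Csf3r, the G-CSF receptor, was at 4.44, 2.68, 2.02 and 4.39 CPM in Ptgs+/+ libraries, 5.28, 5.17 and 5.74 in Ptgs-/- tumors and 4.39, 3.97 and 5.56 in NK-depleted libraries. The Ptgs-/- libraries were narrowly above all Ptgs+/+ libraries, and the NK-depleted ones overlapped with both. The log2 fold changes against Ptgs+/+ were 0.61 (SE 0.27, 95% interval 0.027 to 1.20, adjusted p = 0.123) and 0.42 (SE 0.27, -0.17 to 1.01, adjusted p = 0.356), so neither passed, and these intervals do not include a fall of the size seen in most neutrophil genes. In the last 500 bases of the coding transcripts of Csf3r, 13.3% of the 50-base stretches also occur in transcripts of other genes.

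Most neutrophil genes fell in the same tumors. Of 11 tested, 8 were lower and 0 higher in Ptgs-/- tumors (median log2 fold change -2.32), and 6 were lower and 1 higher in NK-depleted tumors (-1.20). The sum of the 12 listed genes was 498.4 to 729.9 CPM in Ptgs+/+, 114.1 to 177.9 in Ptgs-/- and 202.2 to 257.2 in NK-depleted libraries. Ly6g, the defining surface marker, was at or near 0 throughout (at most 0.389 CPM). Retnlg, another neutrophil gene, was the exception that rose in NK-depleted tumors, from 5.41 to 18.7 CPM (1.77, SE 0.40, adjusted p = 0.0139). These 2 genes were named after their values had been seen. Set against the neutrophil sum, which does not include it, Csf3r was at 0.379 to 0.643% in Ptgs+/+, 2.91 to 4.62% in Ptgs-/- and 1.54 to 2.75% in NK-depleted libraries, 3 ranges that do not overlap, with exact p = 0.0571 against Ptgs+/+ for both and 0.147 adjusted over the ratio tests. A lower neutrophil sum and a higher Csf3r level would each raise these shares. Csf3r itself did not pass, and the part of each was not tested. Mmp9, also named after its values had been seen, was the largest gene of the sum in Ptgs+/+ tumors. It averaged 290.0 CPM there, 33.5 in Ptgs-/- and 51.1 in NK-depleted tumors. Which cells carried the transcripts of Csf3r, of Mmp9 or of the other listed genes was not tested.

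**Figure D5:**
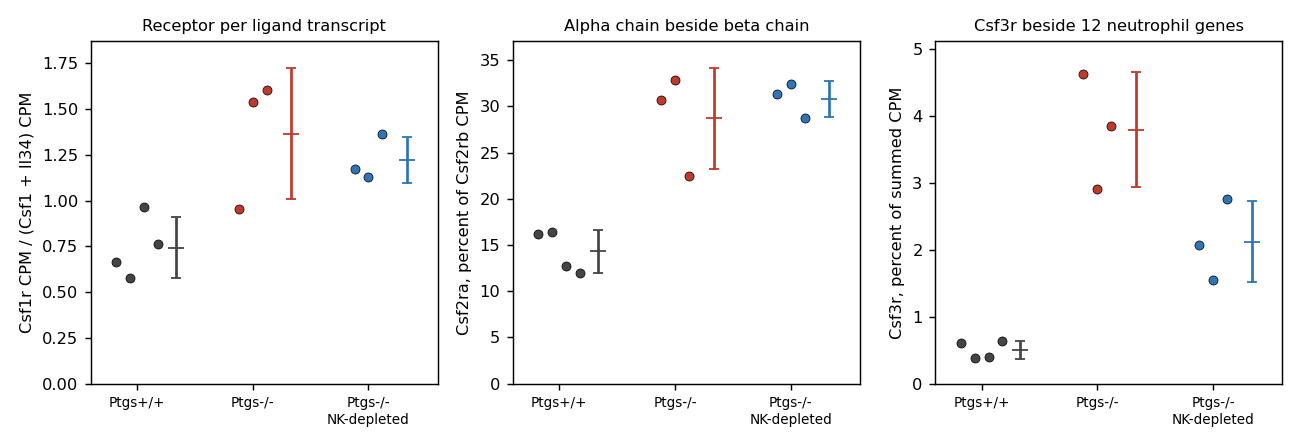
Csf1r level divided by the summed level of its ligands Csf1 and Il34 (left), Csf2ra as a percent of Csf2rb (middle) and Csf3r as a percent of the summed level of 12 neutrophil genes (right), in each library of the 3 groups; vertical axes start at 0, points are libraries, and the bar is the mean with its SD. Csf2ra stood at 11.98 to 16.4% of Csf2rb in Ptgs+/+ tumors and at 22.5 to 32.8% in both kinds of Ptgs-/- tumor.

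Signaling genes of the G-CSF receptor moved in both directions. In Ptgs-/- tumors 5 of 7 listed genes were higher and 2 lower than in Ptgs+/+ (median 0.61), and in NK-depleted tumors 0 were higher and 2 lower (0.13). The Janus kinase gene Tyk2 rose from 24.6 to 44.8 CPM (0.81, SE 0.15, adjusted p = 0.00338) in Ptgs-/- tumors. Socs3, the inhibitor that STAT3 induces and that limits G-CSF signaling, fell from a mean of 136.4 CPM in Ptgs+/+ tumors. It averaged 68.7 in Ptgs-/- (-1.05, SE 0.30, adjusted p = 0.0270) and 64.9 in NK-depleted tumors (-1.10, SE 0.30, adjusted p = 0.0341). Its Ptgs+/+ libraries ran from 62.0 to 172.8 CPM and overlapped with both other groups, at 56.4 to 92.1 and 60.7 to 67.4. Stat3 itself fell from 408.5 CPM in Ptgs+/+ to 338.0 in Ptgs-/- (-0.33, SE 0.087, adjusted p = 0.0177) and 314.9 in NK-depleted tumors (-0.41, SE 0.087, adjusted p = 0.0104).

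Transcription factors of granulocytes and macrophages, some of which act on the promoters of these receptors, moved in both directions. Of 14 listed, 8 were higher and 2 lower in Ptgs-/- than in Ptgs+/+ tumors (median 0.52), and 4 were higher and 1 lower in NK-depleted tumors (0.28). Irf4, a factor of dendritic cells and lymphocytes, rose from 5.81 to 32.8 CPM (2.43, SE 0.31, adjusted p = 0.000387) in Ptgs-/- and 19.2 (1.68, SE 0.31, adjusted p = 0.00467) in NK-depleted tumors. The granulocyte factor Cebpe rose from 0.658 to 2.44 and 2.81 CPM (1.80 and 2.03, adjusted p = 0.00135 and 0.000878), and the repressor Gfi1 from 0.383 to 1.73 in Ptgs-/- tumors (2.14, SE 0.62, adjusted p = 0.0290). Cebpd, induced in inflammation, fell from 91.4 CPM in Ptgs+/+ to 53.3 in Ptgs-/- (-0.83, SE 0.19, adjusted p = 0.0102) and 53.0 in NK-depleted tumors (-0.81, SE 0.19, adjusted p = 0.0179). Among other hematopoietic growth factors and receptors, 1 of 5 tested was higher and 0 lower in both comparisons with Ptgs+/+, with medians of 0.39 and 0.71. This was Kitl, stem cell factor, at 57.2 CPM in Ptgs+/+, 78.1 in Ptgs-/- (0.39, SE 0.12, adjusted p = 0.0310) and 87.4 in NK-depleted tumors (0.58, SE 0.12, adjusted p = 0.00734).

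The genes whose log2 CPM followed each receptor most closely over the 10 libraries give a description of its pattern, without a test, since all values share libraries and groups. Csf1r was followed by P2ry14, a nucleotide-sugar receptor gene (Pearson r = 0.990), Fes, a tyrosine kinase gene of myeloid cells (0.981), and Atp2a3, a calcium pump gene (0.976). Csf2ra was followed by Rhoh, a GTPase gene of blood cells (0.987), Rgs18, a regulator of G protein signaling (0.983), and Bex6 (0.982). For Csf2rb the closest were Trmt2a, Sdk1 and Gm20492 (0.955 to 0.919), for Csf2rb2 B4galt4, Lipo3 and Adck1 (0.924 to 0.896), and for Csf3r Snx13, Sash1 and A630001G21Rik (0.959 to 0.951). Among the ligands, Il34 was followed by Upp1, Gmcl1 and Aprt (0.966 to 0.957) and Csf1 by Mfsd14a, Tecpr2 and Usb1 (0.921 to 0.912).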

How the data were processed

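RNA from 10 bulk tumors was measured with QuantSeq 3′ libraries. The authors trimmed the first 12 bases and trailing polyG and polyA, aligned reads to GRCm38 with STAR, counted them on genes of annotation version 86 with featureCounts, and deposited raw counts per gene with no normalization. Use of strand, multi-mapping reads and molecular identifiers is not given in the sources used here, so overlapping genes and close relatives are uncertain. The labels' antibody schedule is given here; the study's methods state another.

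Groups came from the submitters' labels. Identifiers were named with GENCODE M21 (45143 of 45706). In R 4.3.3, edgeR 4.0.16 (filterByExpr, TMM, quasi-likelihood test, 3 groups in 1 model of 10 libraries, Benjamini-Hochberg over 14550 genes) gave fold changes, with SE = |log2 fold change|/√F. CPM are counts over library totals. Genes passed at an adjusted p at or under 0.05, and the size limit was 1.5 or more on the log2 scale in either direction. Members below the filter were compared with exact permutation tests on CPM (scipy 1.17.1). Replicates differed by 7.41 to 30.1 chi-square per degree of freedom, so none was a copy. The test was checked on data simulated from each gene's mean over all 10 libraries, with known changes placed in the Ptgs-/- columns. Calls by both limits held few false ones there, and calls by adjusted p alone were not checked in this way.

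The members and lists were chosen with earlier results of these data known. Named genes are the 9 members, per list and comparison up to 3 genes with the largest change among those passing (also given where they passed in the other comparison with Ptgs+/+), and the 3 genes most correlated with each tested member (median of at least 10 counts). Alternatives tried were DESeq2 1.42.0, library size alone, other filters, only the 2 groups compared, the experiment code as a term or the first code alone, the label number as a block, and each library left out. One gene that the naming rule selected is not reported here by name, and it stays in the counts of its list.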

Additional observations from a re-analysis of the deposited data

Results flagged for a closer look

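Csf1 in Ptgs+/+ replicate 3 stood far from the other Ptgs+/+ libraries, at 55.6 CPM, with a gap to the nearest library that took 0.935 of the group's range, above Dixon's critical value for 4 samples. It was 1 of 9 genes checked in this group, and chance alone flags about 1 in 20. The 3 other Ptgs+/+ libraries were at 155.9 to 162.9 CPM. The same library had the lowest Ptgs2 level of its group, 94.4 CPM against 282.8 to 346.6 in the others, and whether this bears on Csf1 was not tested.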

How the results depend on the processing

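With 3 or 4 libraries a group, the intervals of most members span 0, and Csf2 and Csf3 lie at the limit of depth. Members passing both limits, 0 in each comparison, became 1 in Ptgs-/- against Ptgs+/+ tumors with no filter (Csf3) and in libraries of the first code alone (Csf2ra), and 0 to 1 with each library left out (Csf2ra without Ptgs-/- replicate 3). By adjusted p alone they were 2 there and 1 in NK-depleted against Ptgs+/+ tumors. Under that rule the first count became 1 in the first code alone and 1 to 2 with libraries left out (Csf2ra alone without Ptgs-/- replicate 2). The second count became 2 with DESeq2, with no filter and with only the groups compared, through Csf1r, and 1 to 2 with libraries left out (Csf1 without Ptgs+/+ replicate 3, Csf1r without Ptgs-/- replicate 1). The label number as a replicate block left these counts at 0, 2, 0 and 1, with Csf2ra at 1.38 and Csf1r at 0.62 in Ptgs-/- against Ptgs+/+ tumors. The deviations of same-numbered libraries from their group means had correlations of -0.24 to 0.36, with 4 of 11 over 0.1. Differently numbered libraries were not set beside them, so these values cannot settle whether the numbers mark pairs. The numbers were not read as pairs. All changes of sign were in members that did not pass. Csf1 in Ptgs-/- against Ptgs+/+ tumors turned to 0.17 (first code alone), 0.010 (block) and ranged from -0.38 to 0.090 with libraries left out. Csf2rb in NK-depleted against Ptgs+/+ tumors turned to 0.024 (library size alone), 0.019 (no filter), 0.014 (at least 10 counts in every library), 0.0065 (only 2 groups), 0.011 (block), 0.090 (code as a term) and 0.16 (first code alone), and ranged from -0.17 to 0.15 with libraries left out. Csf2rb2 in Ptgs-/- against Ptgs+/+ tumors turned to -0.017 with the code as a term and ranged -0.18 to 0.27 with libraries left out. Against NK-depleted tumors, leaving libraries out gave ranges of -0.065 to 0.40 for Csf2ra and -0.029 to 0.42 for Csf2rb2 in Ptgs-/- tumors. The Csf3 difference between these groups ranged -0.119 to 0.0304 CPM, and the Csf2 difference 0 to 0.0517 CPM against both other groups, 0 without Ptgs-/- replicate 2. Csf2ra as a percent of Csf2rb in Ptgs-/- minus NK-depleted tumors ranged -4.19 to 0.978 points. Of the 34 changes of pathway genes followed, 17 passed under every alternative and none turned. The 17 that some alternative put over the threshold were Gfi1, Socs2, Socs3, Shc1, Stat3, Cebpd, Sdc1 and Kitl in Ptgs-/- tumors, and Bcl2l1, Shc1, Jak2, Ptpn6, Socs3, Stat3, Cebpd, Il6 and Il1r1 in NK-depleted tumors. The cause of these changes was not tested, and the other values of the members kept their direction and side of the threshold.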
